A study of Mus musculus with 15 samples.

Results

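Fibroblast growth factors (FGFs) are signaling proteins that cells release to act on FGF receptors of neighboring cells, and the 10 genes followed here are 5 FGF genes (*Fgf2*, *Fgf7*, *Fgf10*, *Fgf18* and *Fgf11*, of which the last encodes a factor that stays inside the cell but is grouped here with the ligands) and 5 receptors (*Fgfr1*, *Fgfr2*, *Fgfr3*, *Fgfr4* and *Fgfrl1*). They were taken by symbol from a table of 53465 mouse genes, in which each of the 10 symbols stands once. Their levels were compared between endothelial populations of B16-F0 melanomas, tumors of a cultured mouse cell line, to set the source of the ligands beside the expression of the receptors. The hosts were CAG-GFP mice, 8 to 14 weeks old by the study's methods, and tumors were collected on day 15. GFP+ cells negative for lineage markers and positive for CD34 were divided by surface CD31, which was low in endovascular progenitors (EVP), intermediate in transit amplifying cells (TA) and high in definitive differentiated cells (D), and by VEGFR2, which was low in EVP and TA and high in D. Each population had 5 RNA sequencing libraries. No group carried another allele or received an agent. The CAG promoter drives GFP in every host cell type, so that GFP separates host from tumor but does not mark endothelium. In other mice, where Cre under *Cdh5* control labeled endothelial cells with YFP, the study found most lineage-negative CD34+ tumor cells to be YFP+. The sequenced cells did not carry that label. The labels do not state whether the 5 libraries of a population came from separate animals, and p-values therefore measure the spread between these libraries.

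Most secreted FGFs bind heparan sulfate on the cell surface together with a receptor tyrosine kinase, which then recruits the adaptor FRS2 and activates the RAS and MAP kinase cascade, and this cascade switches on its own inhibitors, such as the Sprouty and dual specificity phosphatase genes. The receptors *Fgfr1* to *Fgfr3* are made in splice forms, IIIb in epithelium and IIIc in mesenchyme, which differ in the ligands they accept. In tumor vessels FGF2 is known as a mitogen of endothelial cells, whereas FGF7 and FGF10 are known as mesenchymal products that act on the IIIb form of FGFR2 in epithelium.

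The libraries held 5394356 to 26513073 reads on genes. The deposited values are normalized counts, in which the reads of a gene are corrected for the size factor of the library, and a difference was called at a Benjamini-Hochberg adjusted p under 0.05 in limma on log2(normalized count + 1) over 25549 genes. The defining endothelial genes were low in EVP. *Cdh5*, which encodes VE-cadherin, was at 18.3 to 182.5 normalized counts in EVP, 138.2 to 7680 in TA and 7196 to 13383 in D, and 9 of 11 endothelial markers were called lower in EVP than in D, the exceptions being *Tek* (log2 difference -0.72, adjusted p = 0.322) and *Cd34* (-0.68, adjusted p = 0.222). Over all tested genes 7.46% were called lower in EVP than in D. *Erg*, an endothelial transcription factor, was at 0 in 1 EVP library. All 10 fibroblast markers, among them *Col1a1*, *Dcn*, *Pdgfra* and *Pi16*, were called higher in EVP and in TA than in D, beside 11.6% and 8.21% of all tested genes. Their summed normalized count was 860378 to 1547980 in EVP, 195719 to 618765 in TA and 1001 to 4152 in D. The 7 keratinocyte markers summed to 1673 to 8976 in EVP, 2066 to 79434 in TA and 84.1 to 2856 in D, with the highest sum in TA replicate 2. The 9 mural markers summed to 7401 to 34433, 6212 to 156963 and 5212 to 10889, and the 7 melanoma markers to 29776 to 67410, 69334 to 176152 and 18213 to 47920, in EVP, TA and D. The mural markers did not move as 1 group, with 4 called higher in EVP than in D and 2 called lower. Of the 6 adipocyte markers 4 were tested, and only *Fabp4*, which endothelium makes as well, was called. It was at 179.1 to 1911 in EVP, 2326 to 36461 in TA and 26629 to 71665 in D (EVP against D, log2 difference -5.49, limma, adjusted p = 1.2e-05). *Adipoq* and *Lep*, which were too low to be tested, had medians of 0 to 2.61. In bulk samples, fewer cells of a type and less RNA per cell cannot be told apart.

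Replicate 1 of each population had the fewest reads of its population and the highest background. Olfactory receptor genes, which these tissues are not known to use, had at least 1 read for 98.3% of the 1106 genes in EVP replicate 1, 81.6% in TA replicate 1 and 89.2% in D replicate 1. The share was 71.0% in TA replicate 3, 61.8% in EVP replicate 2, 57.8% in TA replicate 2, 24.1% in D replicate 2 and 2.89% in D replicate 5. Leaving out replicate 1 therefore does not remove this background. In reads per kilobase of exon, scaled to equal depth (RPKM), the 95th percentile of the olfactory receptor genes was 5.71 in EVP replicate 1, 1.87 in TA replicate 1, 1.22 in D replicate 1 and 1.16 in TA replicate 3, and at most 0.372 in the other libraries. In EVP replicate 1 only *Fgf7* and *Fgfr1* of the 10 genes lay above it, and in D replicate 1 only *Fgfr1*. The number above it was 4 in TA replicate 1, 6 in TA replicate 3 and 5 in D replicate 2 and in D replicate 3. Without EVP replicate 1 the median log2 difference of all tested genes between EVP and D was 0.0012 in place of 0.46. Calls that change without replicate 1 of every population are given beside the result.

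In EVP against D the 5 listed FGF ligands differed most of the 10 members. Between these populations 7 of the 10 genes were called, all higher in EVP, where 19.0% of all tested genes were called and 11.6% were called higher in EVP. These were the 5 ligands and the receptors *Fgfr1* and *Fgfr2*. The median log2 difference was 5.38 over the ligands and 1.77 over the receptors, beside 0.46 over all tested genes. Between TA and D, *Fgf2*, *Fgf7*, *Fgf18* and *Fgfr2* were called higher in TA, where 12.5% of genes were called and 8.21% were called higher in TA. Between EVP and TA only *Fgfr1* was called, higher in EVP, where 3.50% of genes were called and 1.56% were called higher in EVP. Without replicate 1 of every population the numbers called were 8, 6 and 0 in EVP against D, TA against D and EVP against TA. Over all 25549 tested genes that fit called 4805, 3973 and 104, against 4859, 3199 and 893 with all libraries. Calls between EVP and TA that were lost in that fit are therefore not particular to the genes named here. Quantile normalization moved the median of all tested genes between EVP and D from 0.46 to -0.05, and the 5 genes *Fgf7*, *Fgf2*, *Fgf10*, *Fgf18* and *Fgfr1* were still called higher in EVP, with log2 differences of 7.51, 4.08, 4.92, 4.37 and 1.63. The study had named the 5 ligands, and *Fgf16*, *Fgf21* and *Fgf23*, as overexpressed in EVP from these same libraries. Neither the direction nor the size of the ligand differences is therefore independent evidence, also when set beside the receptors. Over the 11 tested genes among the other 17 FGF genes, which include *Fgf16*, *Fgf21* and *Fgf23*, the median log2 difference was 1.94. This median is thus not free of genes the study named. It also includes *Fgf12* and *Fgf14*, whose folds between EVP and D went from 4.25 to 0.30 and from 7.42 to 0.59 without EVP replicate 1. All 10 genes passed the filter on low values, which asked for a mean normalized count of 5 or more. All EVP libraries lay above all D libraries for 6 of the 10 genes, beside 10.2% of tested genes, all EVP above all TA libraries for 2 (*Fgf7* and *Fgfr1*), beside 2.70%, and all TA above all D libraries for 2 (*Fgf2* and *Fgf7*), beside 5.56%. In either direction these shares of tested genes were 17.7%, 4.29% and 9.25%.

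**Figure D1:**
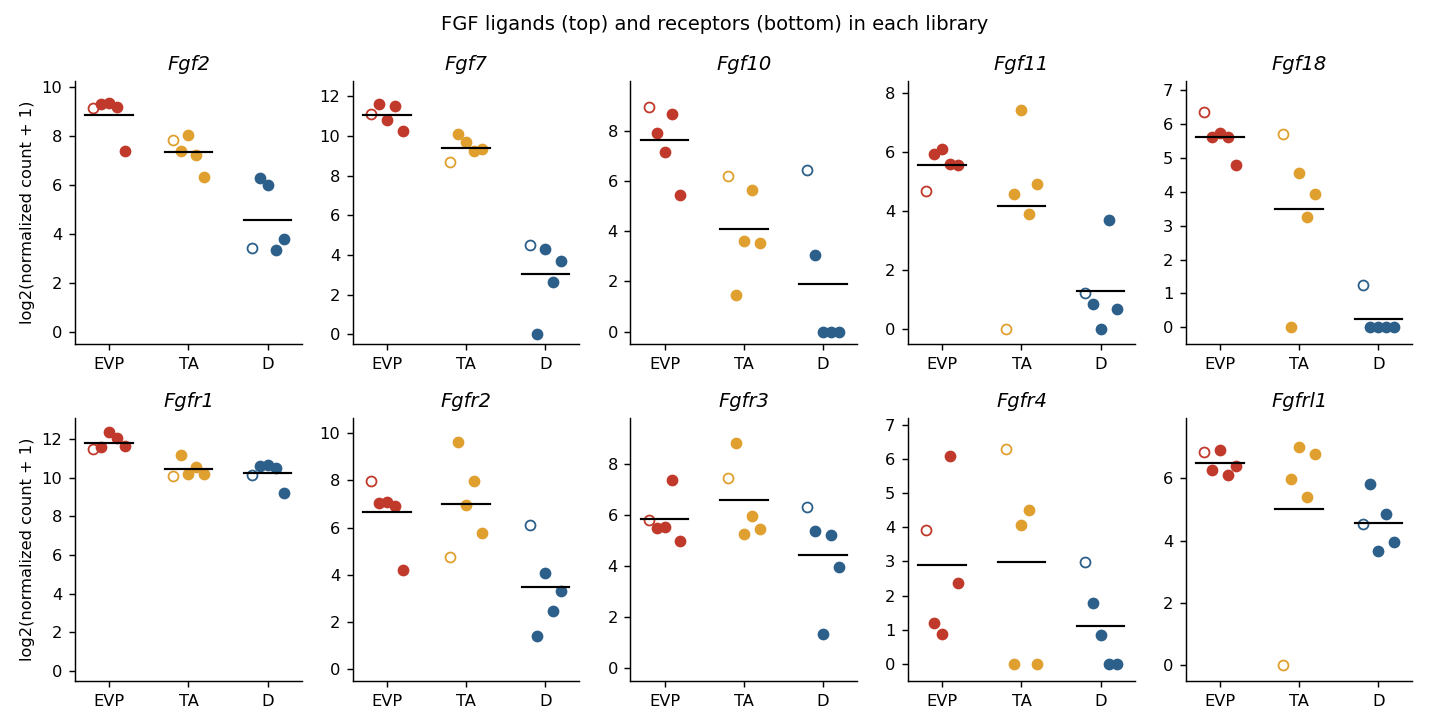
Each point is 1 library, with log2(normalized count + 1) on the vertical axis, the populations EVP, TA and D on the horizontal axis and a black line at the mean of 5 libraries. Open points mark replicate 1. *Fgf7* is high in all 5 EVP libraries, lower in TA and near the bottom in D, while *Fgfr1* is high in every library.

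*Fgf7*, *Fgf10* and *Fgf18* encode paracrine ligands and had the largest log2 differences of the 10 genes between EVP and D, taken on log2(normalized count + 1) in limma, and their promoters are shown for that reason. The RefSeq table of promoters (GRCm38.p6) held 9 of the 10 genes, all but *Fgfr1*. The stretches below are the 250 bases before the start of transcription, read in the direction of the gene, none of which overlapped an annotated exon. They lie at chr2:126034408-126034657 on the plus strand for *Fgf7*, at chr13:118714449-118714698 on the plus strand for *Fgf10* and at chr11:33147401-33147650 on the minus strand for *Fgf18*. The *Fgf10* stretch lies inside the annotated gene, before a start downstream of the first. Capitals mark a CCAAT box (CCAAT, or ATTGG on the other strand) or a GC box (GGGCGG, or CCGCCC on the other strand).
Fgf7: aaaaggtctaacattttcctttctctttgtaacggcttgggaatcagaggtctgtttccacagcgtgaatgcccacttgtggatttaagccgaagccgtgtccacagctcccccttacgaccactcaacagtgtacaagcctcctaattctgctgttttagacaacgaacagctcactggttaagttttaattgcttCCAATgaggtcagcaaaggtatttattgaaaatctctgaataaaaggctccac
Fgf10: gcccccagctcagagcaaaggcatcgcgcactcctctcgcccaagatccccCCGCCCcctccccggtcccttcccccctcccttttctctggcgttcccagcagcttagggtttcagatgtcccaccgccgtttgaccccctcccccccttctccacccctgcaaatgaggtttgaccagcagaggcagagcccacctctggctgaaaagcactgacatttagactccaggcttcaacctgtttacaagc
Fgf18: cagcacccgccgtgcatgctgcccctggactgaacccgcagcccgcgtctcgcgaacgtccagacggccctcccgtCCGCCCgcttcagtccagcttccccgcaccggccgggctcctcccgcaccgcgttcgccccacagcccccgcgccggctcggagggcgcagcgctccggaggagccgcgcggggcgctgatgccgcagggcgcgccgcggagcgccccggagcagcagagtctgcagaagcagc

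The promoter of *Fgf7* held 1 CCAAT box and no GC box, with 43.6% G or C and 6 CpG sites. That of *Fgf18* held 1 GC box and no CCAAT box, with 77.2% G or C and 37 CpG sites, and that of *Fgf10* held 1 GC box, with 61.2% G or C and 8 CpG sites. Over all 32851 promoters of the same length the medians were 52.4% G or C and 6 CpG sites, 32.7% held a GC box and 33.8% a CCAAT box. The TATA box (TATAAA) and the AP-1 site (TGANTCA), searched on both strands, were in none of the 10 promoter windows of the 9 genes, and in 12.4% and 6.75% of all windows. The base composition of these ligand promoters thus ranged from rich in CpG sites, in *Fgf18*, to a number of CpG sites equal to the median, in *Fgf7*.

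*Fgf7*, also called keratinocyte growth factor, is made by stromal cells and acts on epithelial FGFR2. It lies on chromosome 2 (GRCm38, 126034658 to 126091185, plus strand). Its normalized counts were 2223, 3097, 1805, 2891 and 1223 in EVP replicates 1 to 5, 415.4, 1085, 843.8, 608.0 and 646.4 in TA, and 22.0, 0, 18.8, 5.26 and 12.1 in D. All EVP libraries were above all TA libraries, and all TA libraries were above all D libraries. The mean was 193.5-fold higher in EVP than in D, a log2 difference of 8.02 ± 0.64 (SE, n = 5 per population; limma, adjusted p = 7.9e-08). In TA it was 62.0-fold higher than in D, a log2 difference of 6.38 ± 0.64 (limma, adjusted p = 2.7e-06). EVP was 3.12-fold above TA, a log2 difference of 1.64 ± 0.64 that was not called in limma over all 15 libraries (adjusted p = 0.200). It was called in DESeq2 (adjusted p = 0.0117), with a pseudocount of 8 (limma, adjusted p = 0.0178), with only EVP and TA fitted (limma, adjusted p = 0.0182) and without D replicate 2 (limma, adjusted p = 0.0237). The fibroblast markers moved with *Fgf7*, with a sum in every EVP library above that in every TA library and in every TA library above that in every D library. Their part in the difference was not tested.

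*Fgf2*, the basic FGF, is a mitogen of endothelial cells and lies on chromosome 3 (37348346 to 37410108, plus strand). Its normalized counts were 551.2, 617.9, 640.6, 577.0 and 163.9 in EVP, 224.1, 165.3, 261.2, 148.1 and 78.5 in TA and 9.61, 75.9, 61.8, 9.01 and 12.7 in D. EVP and TA did not overlap with D, and EVP overlapped with TA through EVP replicate 5, which lay below 3 of the 5 TA libraries. *Fgf2* was 15.1-fold higher in EVP than in D (log2 difference 4.30 ± 0.60 SE, limma, adjusted p = 3.6e-05) and 5.19-fold higher in TA than in D (2.80 ± 0.60, limma, adjusted p = 0.00406). The call between TA and D was lost after quantile normalization (limma, adjusted p = 0.0551) and without replicate 1 of every population and TA replicate 2 (limma, adjusted p = 0.0934). Between EVP and TA the log2 difference was 1.50, with a 95% interval from 0.24 to 2.76 (limma, adjusted p = 0.214). Of the exon bases of *Fgf2*, 9.44% are shared with *Nudt6* on the opposite strand and 3.76% with *Gm43439* on the same strand. *Nudt6* was at 38.6 to 104.5 normalized counts in EVP, 23.4 to 89.7 in TA and 19.6 to 64.9 in D, and reads of a protocol that does not mark strand cannot be told apart in the shared bases.

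*Fgf10*, a close relative of *Fgf7* in sequence and receptor use, lies on chromosome 13 (118669791 to 118792115, plus strand). It was at 491.6, 240.4, 142.3, 406.8 and 42.9 normalized counts in EVP, 72.4, 1.76, 11.2, 49.4 and 10.6 in TA and 85.1, 7.35, 0, 0 and 0 in D. TA and D lay within the same range, and 4 of the 5 EVP libraries lay above every library of the other populations. *Fgf10* was called higher in EVP than in D, 14.3-fold (log2 difference 5.73 ± 1.21 SE, limma, adjusted p = 0.00204), and this call was lost in edgeR (adjusted p = 0.103). D replicate 1, the library with the highest background of its population, held nearly all of the D reads, and without it the mean was 144.2-fold higher in EVP than in D. That fold kept EVP replicate 1, which had the highest background of all libraries and the highest *Fgf10* of EVP. Without replicate 1 of every population the difference between EVP and D stayed called (limma, adjusted p = 0.00105). Without D replicate 1 alone, *Fgf10* was also called higher in TA than in D (log2 difference 3.33, limma, adjusted p = 0.0370), which it was not with all libraries (2.19, limma, adjusted p = 0.309).

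*Fgf18*, which is known for its part in the growth of cartilage and bone, lies on chromosome 11 (33117430 to 33147400, minus strand). Its normalized counts were 80.8, 48.3, 52.4, 48.0 and 27.0 in EVP, 51.7, 0, 22.3, 8.62 and 14.3 in TA, and 1.37, 0, 0, 0 and 0 in D, where the only value above 0 was a single read. All EVP libraries were above all D libraries, and TA reached into the range of both. The ratio of summed reads, with libraries scaled by size factor, was 279.0 between EVP and D (223 reads against 1, exact 95% counting interval 49.6 to 11069) and 95.04 between TA and D (84 reads against 1, 16.6 to 3798). Both differences were called in limma (EVP against D, adjusted p = 2.1e-04, TA against D, adjusted p = 0.0215). The call between TA and D was lost without TA replicate 1 (limma, adjusted p = 0.0518), TA replicate 3 (0.0508), TA replicate 5 (0.0514) or D replicate 4 (0.0501), and with a pseudocount of 8 (0.0639), after quantile normalization (0.0779) and with only TA and D fitted (0.0614).

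*Fgf11* belongs to the FGF homologous factors, which stay inside the cell and bind sodium channels rather than FGF receptors. It lies on chromosome 11 (69796068 to 69801857, minus strand). It was at 24.6, 60.1, 67.1, 48.0 and 46.3 normalized counts in EVP, 0, 22.9, 171.9, 14.1 and 29.3 in TA, and 1.37, 0.816, 0, 12.0 and 0.604 in D. EVP did not overlap with D, whereas TA held both the lowest and the highest value of EVP and TA together. The 16.6-fold difference between EVP and D was called in limma (log2 difference 4.28 ± 1.07 SE, adjusted p = 0.00751) and not in edgeR (adjusted p = 0.0718) or after quantile normalization (limma, adjusted p = 0.222). D replicate 4 held 16 reads of *Fgf11* and the other 4 D libraries 3 in all. Without it the ratio of summed reads between EVP and D was 85.9, with an exact 95% counting interval from 29.1 to 419.1. The difference between TA and D was not called with all libraries (limma, adjusted p = 0.0954) and was called without TA replicate 1, which had no read of *Fgf11* (limma, adjusted p = 0.00411), and without replicate 1 of every population (limma, adjusted p = 0.0140).

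**Figure D2:**
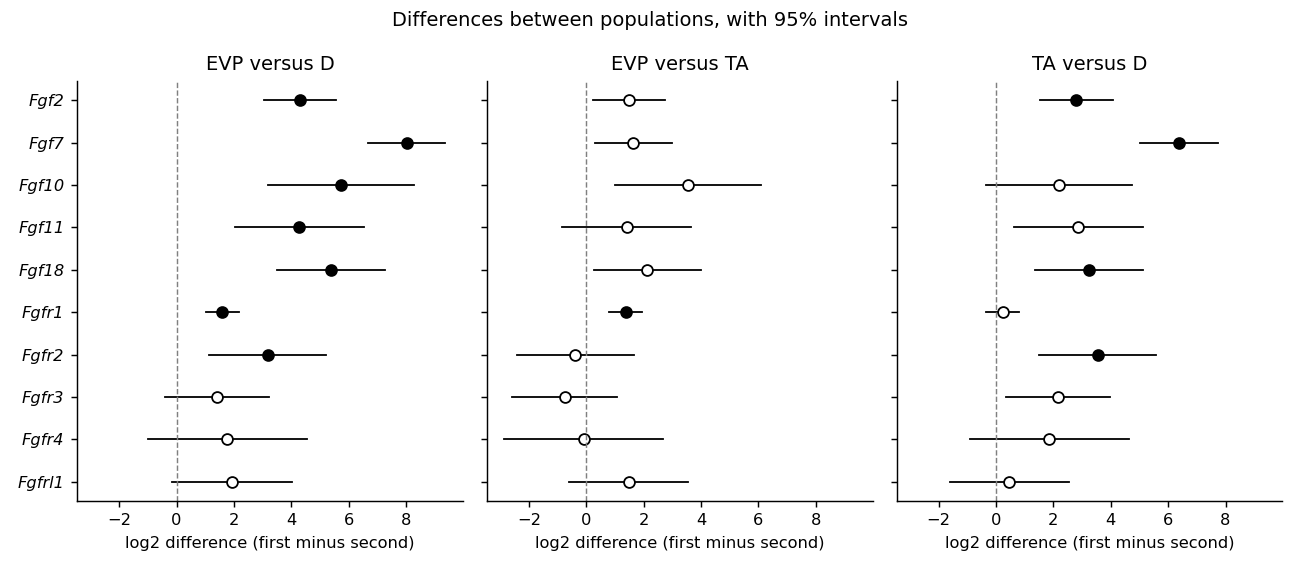
Each point is the log2 difference of 1 gene between a pair of populations, the first minus the second, with its 95% interval from limma over 15 libraries, and filled points passed the adjusted p of 0.05. The 5 ligands lie between 4.28 and 8.02 in EVP against D, and *Fgfr1* has the narrowest interval of the 10 genes in all 3 comparisons.

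Among the receptors, *Fgfr1* was at a high level in every library. FGFR1 is the receptor through which FGF2 acts on mesenchymal and endothelial cells. *Fgfr1* lies on chromosome 8 (25513654 to 25575718, plus strand). Its normalized counts were 2851, 3065, 5151, 4158 and 3115 in EVP, 1096, 2280, 1166, 1505 and 1155 in TA, and 1124, 1545, 1599, 1417 and 586.8 in D. Every EVP library was above every TA and every D library, and TA and D covered much the same range. *Fgfr1* was 2.92-fold higher in EVP than in D (log2 difference 1.60 ± 0.28 SE, limma, adjusted p = 3.4e-04) and 2.55-fold higher in EVP than in TA (1.37 ± 0.28, limma, adjusted p = 0.0110). The latter was not called without replicate 1 of every population, at the same log2 difference of 1.37 (limma, adjusted p = 0.0889). Between TA and D the log2 difference was 0.23, with a 95% interval from -0.36 to 0.81 (limma, adjusted p = 0.721).

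*Fgfr2*, whose IIIb form is the receptor of FGF7 and FGF10 in epithelium, lies on chromosome 7 (130162451 to 133123350, minus strand). It was at 252.8, 129.3, 135.8, 121.5 and 17.3 normalized counts in EVP, 25.9, 801.7, 125.0, 250.7 and 53.6 in TA, and 68.6, 1.63, 15.6, 4.51 and 9.07 in D. TA replicate 2 was by far the highest. EVP replicate 5, TA replicate 1 and TA replicate 5 reached down into the range of D, which ended at 68.6 in D replicate 1. *Fgfr2* was called higher than in D in EVP (6.60-fold, log2 difference 3.17 ± 0.97 SE, limma, adjusted p = 0.0270) and in TA (12.6-fold, 3.55 ± 0.97, limma, adjusted p = 0.0207). In EVP the call was lost in edgeR (adjusted p = 0.0944), after quantile normalization (limma, adjusted p = 0.196) and in 7 of the 15 fits without 1 library, those without EVP replicate 1, 2, 3 or 4 or D replicate 2, 4 or 5 (limma, adjusted p from 0.0545 to 0.0807). In TA it was lost without TA replicate 2 (limma, adjusted p = 0.0594), TA replicate 4 (0.0515), D replicate 2 (0.0628) or D replicate 4 (0.0580) and after quantile normalization (0.231). Without D replicate 1 the mean was 17.0-fold higher in EVP and 32.6-fold higher in TA than in D. The 17.0-fold kept EVP replicate 1, which had the highest background of all libraries and the highest *Fgfr2* of EVP. Without TA replicate 2 the mean was 5.72-fold higher in TA than in D. TA replicate 2 was also the library with the highest sum of keratinocyte markers, 79434 beside 2066 to 17607 in the other TA libraries. D replicate 1 had the highest *Fgfr2* and the highest keratinocyte sum of D, 2856 beside 84.1 to 552.7. The part of keratinocyte RNA was not tested. The counts do not separate the IIIb from the IIIc form. The annotated span of *Fgfr2* reaches over many other genes, and 3.04% of its exon bases are shared with *Ctbp2*.

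*Fgfr3*, a receptor that FGF18 activates in cartilage, lies on chromosome 5 (33721674 to 33737068, plus strand). Its normalized counts were 56.2, 44.4, 45.8, 168.6 and 31.1 in EVP, 177.5, 464.2, 37.9, 62.7 and 43.0 in TA and 79.6, 40.8, 1.56, 36.1 and 14.5 in D. The 3 populations overlapped, and the highest value was again in TA replicate 2. Of its exon bases, 13.9% are shared with *G630022F23Rik* on the opposite strand. No difference was called in limma, with log2 differences of 1.41 between EVP and D (95% interval -0.41 to 3.23, adjusted p = 0.339) and 2.17 between TA and D (0.34 to 3.99, adjusted p = 0.124). DESeq2 called the latter (adjusted p = 0.0487).

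*Fgfr4*, a receptor known from liver and muscle progenitors, was the lowest of the receptors. It lies on chromosome 13 (55152640 to 55168759, plus strand) and was at 14.04, 1.31, 0.818, 67.1 and 4.15 normalized counts in EVP, 77.6, 0, 15.6, 21.9 and 0 in TA and 6.86, 2.45, 0.782, 0 and 0 in D. Single libraries carried most of the reads in each population. No difference was called in limma (adjusted p = 0.463 between EVP and D, 0.998 between EVP and TA and 0.468 between TA and D).

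*Fgfrl1* encodes a receptor that binds FGFs but lacks the tyrosine kinase domain. It lies on chromosome 5 (108692382 to 108706924, plus strand). It was at 112.4, 75.8, 117.8, 67.9 and 83.7 normalized counts in EVP, 0, 61.5, 126.1, 40.7 and 109.6 in TA and 22.0, 54.7, 11.7, 27.8 and 14.5 in D. All EVP libraries were above all D libraries, and TA held both the lowest and the highest value. The 3.50-fold difference between EVP and D was not called in limma with all libraries (log2 difference 1.94, 95% interval -0.14 to 4.02, adjusted p = 0.221). It was called without TA replicate 1, which had no read of *Fgfrl1* and entered only through the shared estimate of the spread (limma, adjusted p = 0.00601), and without replicate 1 of every population (limma, adjusted p = 0.0281). The difference between TA and D was called without TA replicate 1 as well (log2 difference 1.72, limma, adjusted p = 0.0267) and without replicate 1 of every population (1.71, limma, adjusted p = 0.0471), against a log2 difference of 0.47 with all libraries (limma, adjusted p = 0.851).

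To set ligands beside receptors, levels of different genes were compared as RPKM, with reads on genes as the depth. The length was that of all exon bases of a gene, 3248 for *Fgf7* and 9875 for *Fgfr1*. Their longest transcripts have 2672 and 5041 bases, and with these the level of *Fgfr1* rises more than that of *Fgf7*. In EVP the order by mean level was *Fgf7* (39.2 ± 11.9, SD, n = 5), *Fgfr1* (21.5 ± 6.56), *Fgf2* (4.27 ± 1.63), *Fgf10* (3.19 ± 2.10), *Fgf18* (2.44 ± 0.787), *Fgfrl1* (1.90 ± 0.491), *Fgf11* (0.940 ± 0.337), *Fgfr2* (0.710 ± 0.423), *Fgfr3* (0.548 ± 0.434) and *Fgfr4* (0.276 ± 0.446). *Fgf7* exceeded *Fgfr1* in 5 of 5 EVP and 5 of 5 TA libraries and in 0 of 5 D libraries. The counts in EVP and TA hold for all exon bases as the length and are lower with the longest transcripts. *Fgf2* exceeded *Fgf10* in 3 of 5 EVP libraries and *Fgf10* exceeded *Fgf18* in 3 of 5, so these neighbors were not set apart by their spread.

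In TA *Fgf7* (14.6 ± 5.40) and *Fgfr1* (9.54 ± 3.37) again led. *Fgf2* (1.68 ± 0.686), *Fgfrl1* (1.62 ± 1.24), *Fgfr2* (1.60 ± 2.02), *Fgfr3* (1.41 ± 1.64), *Fgf11* (1.06 ± 1.58) and *Fgf18* (1.03 ± 0.996) followed within their spread, and *Fgfr4* (0.405 ± 0.538) and *Fgf10* (0.400 ± 0.404) were lowest. In D *Fgfr1* stood alone at 7.92 ± 2.79, and *Fgfrl1* (0.588 ± 0.408) was the next. *Fgf2* (0.319 ± 0.313), *Fgfr3* (0.293 ± 0.245), *Fgf10* (0.237 ± 0.474), *Fgf7* (0.219 ± 0.171), *Fgfr2* (0.115 ± 0.156), *Fgf11* (0.0590 ± 0.101), *Fgfr4* (0.0345 ± 0.0477) and *Fgf18* (0.0135 ± 0.0302) lay below.

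Summed over the 5 ligands, the level was 28.2 to 63.9 in EVP, 13.2 to 25.6 in TA and 0.361 to 1.65 in D. Summed over *Fgfr1* to *Fgfr4*, it was 17.2 to 33.1 in EVP, 8.42 to 24.4 in TA and 3.89 to 10.6 in D. The ratio of the ligand sum to the receptor sum was 2.31 ± 0.940 (SD, n = 5) in EVP, 1.62 ± 0.675 in TA and 0.104 ± 0.0629 in D. EVP and TA overlapped in this ratio, from 1.38 to 3.51 and from 0.981 to 2.69, and D lay between 0.0463 and 0.212. The ratio depends on the length taken for each gene, and it is lower with the longest transcripts, as that of *Fgfr1* is much shorter than its exon bases. Whether single EVP and TA libraries hold more ligand than receptor was therefore not settled. The 5 ligands are among those the study named as overexpressed in EVP from these libraries. A low ligand sum in D therefore follows in part from the choice of genes. *Fgf1*, which is not in the sum, was at 51.4 to 201.2 normalized counts in D. *Fgf7* made up 78.5% of the ligand sum in EVP, 76.8% in TA and 30.1% in D, where the share ran from 0 to 64.3% over the libraries. Without *Fgf11*, which does not act on these receptors, the ligand sum was 27.3 to 62.8 in EVP, 13.2 to 23.4 in TA and 0.178 to 1.63 in D, and its ratio to the receptor sum was 2.27 ± 0.938, 1.51 ± 0.521 and 0.0975 ± 0.0686. *Fgfr1* made up 93.1% ± 4.25 of the receptor sum in EVP, 77.3% ± 11.8 in TA and 94.3% ± 5.25 in D. The lowest share, 61.8%, was in TA replicate 2, where *Fgfr2* was at 5.07 and *Fgfr3* at 4.24. The level of *Fgf7*, whose main receptor is a form of FGFR2, was above that of *Fgfr2* in 5 of 5 EVP, 5 of 5 TA and 4 of 5 D libraries.

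**Figure D3:**
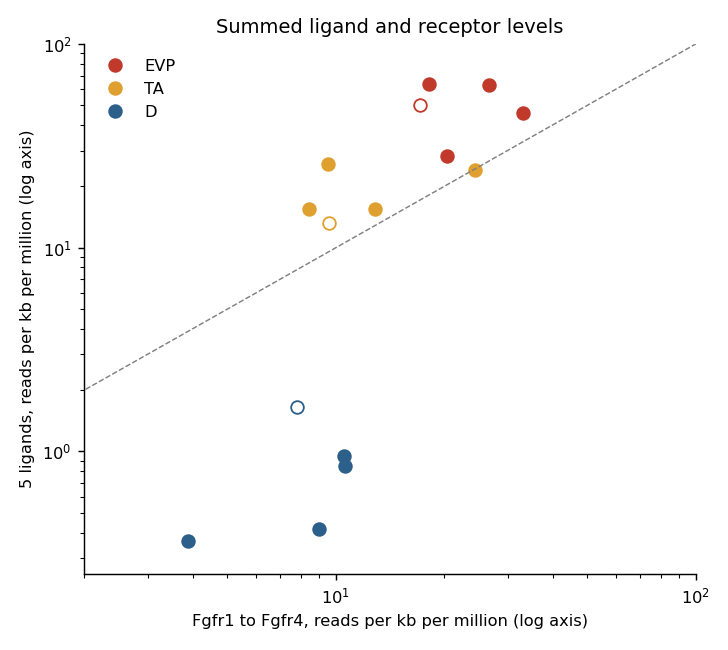
Each point is 1 library, with the summed level of *Fgfr1* to *Fgfr4* on the horizontal and of the 5 ligands on the vertical axis, both in RPKM and on log axes. Open points are replicate 1 and the dashed line marks equal sums. The 5 D libraries lie far below the line, the 5 EVP libraries above it, and TA replicate 2 just below it. The side of the line on which EVP and TA libraries lie depends on the length taken for each gene, here all exon bases. The 5 ligands are among those the study named as overexpressed in EVP from these libraries.

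Of the other 17 FGF genes, 11 passed the filter and 2 were called between EVP and D, both higher in EVP, where 19.0% of all tested genes were called and 11.6% were called higher in EVP. These were the endocrine factors *Fgf21*, a regulator of metabolism (log2 difference 3.66 ± 0.89 SE, limma, adjusted p = 0.00641), and *Fgf23*, a regulator of phosphate (10.6-fold, 3.23 ± 0.94, limma, adjusted p = 0.0214). *Fgf21* was at 10.5 to 36.6 normalized counts in EVP, 0 to 21.8 in TA and 0 to 4.23 in D, with 4 of 5 D libraries at 0 and 7 reads in D replicate 5. Without that library *Fgf21* was at least 6.66-fold higher in EVP, against a floor of 3 reads per D library. *Fgf23* was at 8.18 to 72.7, 1.12 to 18.8 and 0 to 10.98, and 22.2-fold higher in EVP without D replicate 1. *Fgf16* was at 6.54 to 147.5, 1.57 to 61.4 and 0 to 12.4, and its log2 difference of 3.03 between EVP and D was not called (limma, adjusted p = 0.0634). None of the 11 was called between EVP and TA or between TA and D. *Fgf1*, the acidic FGF that binds all the receptors, was at 116 to 239.8 in EVP, 62.0 to 414.1 in TA and 51.4 to 201.2 in D, with a log2 difference of 0.69 between EVP and D (limma, adjusted p = 0.403). The co-receptors that endocrine FGFs need, *Kl* and *Klb*, reached 115.9 and 42.1 normalized counts at most and were not called.

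Of the 11 co-receptors and binding proteins, 5 were called between EVP and D, all higher in EVP, against the shares of 19.0% and 11.6% over all tested genes. *Ncam1*, an adhesion molecule that can bind FGFR1, was at 1202 to 2379 normalized counts in EVP, 459.8 to 1495 in TA and 21.1 to 182.6 in D (EVP against D 26.7-fold, log2 difference 5.13, limma, adjusted p = 2.6e-07), and without D replicate 1 the difference was 50.0-fold. *Flrt2*, a transmembrane partner of FGF receptors, was at 1758 to 5147 in EVP, 122.8 to 901.8 in TA and 77.4 to 146.9 in D, and it was called higher in EVP than in D (30.1-fold, limma, adjusted p = 3.6e-07) and than in TA (5.33-fold, limma, adjusted p = 0.00453), the latter not called without replicate 1 of every population (limma, adjusted p = 0.0713). *Fgfbp1*, a carrier that frees FGFs from the matrix, had its highest values in TA, with 18.0 to 201.2 in EVP (median 49.1), 53.3 to 3131 in TA (median 117.1) and 0 to 49.4 in D (median 1.50). *Flrt3*, a relative of *Flrt2*, was 9.73-fold higher in EVP than in D (limma, adjusted p = 0.00207). Between TA and D 5 were called as well, all higher in TA, beside 12.5% of tested genes called and 8.21% higher in TA, and this count was 4 without replicate 1 of every population and 3 without TA replicate 2 as well. *Fgfbp1* was one of them (79.3-fold, limma, adjusted p = 0.00151). Its fold was 27.7 without TA replicate 2 and 654.7 without D replicate 1, the libraries with the highest keratinocyte sums of TA and D, and the part of keratinocyte RNA was not tested.

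The heparan sulfate proteoglycans hold FGFs at the cell surface. Of 12 core proteins, 7 were called higher in EVP than in D and 2 lower, beside 11.6% and 7.46% of all tested genes, with a median log2 difference of 2.48. Without replicate 1 of every population 7 were called higher and 3 lower. *Gpc3* was at 4004 to 13197 normalized counts in EVP, 1023 to 3062 in TA and 3.13 to 41.6 in D (377.4-fold between EVP and D, limma, adjusted p = 2.3e-09). *Sdc2* (69.7-fold), *Gpc6* (28.9-fold) and *Sdc4* (25.6-fold) followed among those higher in EVP (limma, adjusted p from 2.6e-09 to 1.2e-06), and the fold of *Gpc6* was 52.8 without D replicate 3. *Sdc3* and the basement membrane perlecan *Hspg2* were called lower in EVP, 3.11-fold and 2.52-fold. Between TA and D, 7 were called higher and 1, *Hspg2*, lower, beside 8.21% and 4.31% of all tested genes, and none was called between EVP and TA, where the lowest adjusted p of the 12 was 0.0548.

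Of 16 tested enzymes of heparan sulfate, 6 were called higher in EVP than in D and 1 lower, beside the same 11.6% and 7.46%. Without replicate 1 of every population these counts were 5 and 1. *Sulf1*, a sulfatase that removes sulfate groups FGFs need to signal, was at 6110 to 10490 normalized counts in EVP, 1121 to 4660 in TA and 40.6 to 242.5 in D (55.1-fold between EVP and D, limma, adjusted p = 1.4e-08), and it was called between EVP and TA as well (2.95-fold, limma, adjusted p = 0.0265), but not without replicate 1 of every population (limma, adjusted p = 0.167). The sulfatase *Sulf2* (10.1-fold) and the sulfotransferases *Ndst3* and *Hs6st2* were also called higher in EVP than in D. *Ndst3* was at 4.09 to 238.8 normalized counts in EVP (median 35.2) and 0 to 19.2 in D (median 0.816), and its 13.6-fold difference was 4.88-fold without EVP replicate 1 and 50.0-fold without D replicate 1. *Hs6st2* was at 185.5 to 484.5 in EVP and 0 to 204.6 in D (median 0.604), and its 7.96-fold difference was 305.2-fold without D replicate 1. *Hs3st3b1*, a 3-O-sulfotransferase, went the other way, 5.01-fold lower in EVP (limma, adjusted p = 9.5e-05). The fibroblast markers were higher in EVP and TA beside each of these groups, and their part was not tested.

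Downstream of the receptors the calls pointed mostly the other way, where 7.46% of all tested genes were called higher in D than in EVP, 4.31% higher in D than in TA and 1.94% higher in TA than in EVP. Of 21 adaptors and transducers, 7 were called lower in EVP than in D and 1 higher, with a median log2 difference of -0.27. *Plcg1*, the phospholipase that binds activated FGF receptors, was at 513.4 to 715.8 normalized counts in EVP and 1429 to 2604 in D (3.18-fold lower in EVP, limma, adjusted p = 7.4e-06). *Mapk3*, which encodes the kinase ERK1, was 2.88-fold lower (limma, adjusted p = 1.7e-05), and *Sos1* and *Gab1* 2.75-fold and 2.32-fold lower. The adaptor *Frs2* was the 1 gene called higher in EVP (2.71-fold, limma, adjusted p = 0.00102). Between TA and D, 5 were called lower in TA and 1, again *Frs2*, higher. The number called lower in TA was 6 without replicate 1 of every population.

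Of 15 feedback inhibitors and targets of the pathway, 8 were called lower in EVP than in D and 2 higher. Without replicate 1 of every population 6 were called lower and 2 higher, and without TA replicate 2 as well 6 lower and 3 higher. *Spry4*, a Sprouty inhibitor, was at 44.4 to 475.7 normalized counts in EVP, 306.8 to 2777 in TA and 3490 to 5039 in D. The populations were ordered from EVP to D, with overlap only between EVP and TA, and *Spry4* was 17.5-fold lower in EVP than in D (log2 difference -4.57 ± 0.58 SE, limma, adjusted p = 1.3e-05) and 5.98-fold lower than in TA (limma, adjusted p = 0.0138), the latter not called without replicate 1 of every population (limma, adjusted p = 0.132). *Dusp6*, the phosphatase of ERK, was at 765.4 to 2217, 2110 to 3484 and 3829 to 6541, 3.54-fold lower in EVP than in D (limma, adjusted p = 1.4e-05). *Dusp6* was also called lower in EVP than in TA (log2 difference -0.96, limma, adjusted p = 0.0332), but not without replicate 1 of every population (limma, adjusted p = 0.118). *Dusp5* and *Spred3* were among the others called lower in EVP than in D, 3.74-fold and 2.79-fold (limma, adjusted p = 0.0318 and 0.0447). *Egr1*, an immediate early gene that stress and many growth factors induce, and *Spry2* went against them, 7.99-fold and 1.84-fold higher in EVP (limma, adjusted p = 1.9e-05 and 0.0399). Other growth factors, such as VEGF, use the same feedback genes, and *Kdr*, which encodes VEGFR2 and was part of the sort, was at 94.1 to 712.1 normalized counts in EVP and 15216 to 26252 in D. The 11 endothelial markers, which include *Kdr*, summed to 14247 to 34570 in EVP and 125318 to 194240 in D, and their part in these differences was not tested.

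Over the 6 lists of pathway genes, 41 of 86 tested genes were called between EVP and D (23 higher in EVP, 18 lower), 29 between TA and D (19 higher in TA, 10 lower) and 4 between EVP and TA, beside 19.0%, 12.5% and 3.50% of all tested genes. The 4 were *Flrt2*, *Sulf1*, *Spry4* and *Dusp6*. Without replicate 1 of every population these counts were 39, 29 and 0, and without TA replicate 2 as well they were 40, 24 and 0.

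**Figure D4:**
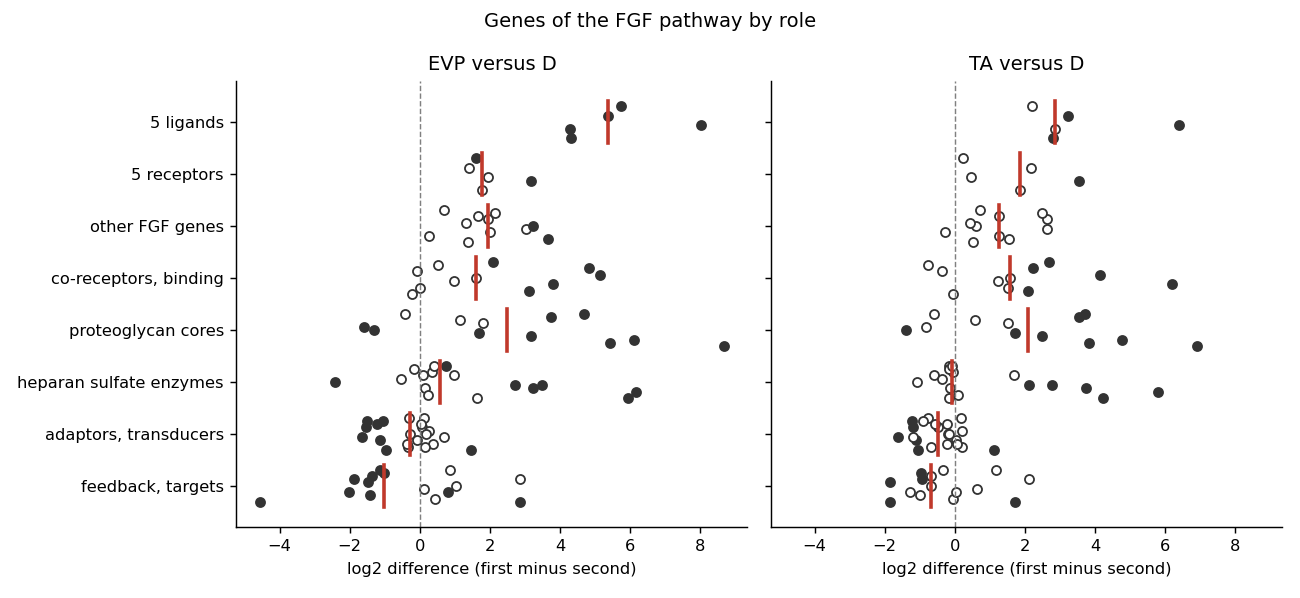
Each point is 1 tested gene, placed by its role in the FGF pathway and by its log2 difference, EVP minus D on the left and TA minus D on the right. Filled points passed the adjusted p of 0.05 in limma and red bars are medians of the lists. The median falls from 5.38 over the 5 ligands to -1.01 over the feedback genes and targets in EVP against D. The 5 ligands are among those the study named from these libraries. The median over the other FGF genes, which include the named *Fgf16*, *Fgf21* and *Fgf23*, is 1.94.

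The genes with a pattern most like each member were taken by the Pearson correlation of log2(normalized count + 1) over the 15 libraries, as a description. For *Fgf7* these were *Srpx* (r = 0.991), *Il33* (0.990) and *Adora2b* (0.990). For *Fgf2* they were *Mgst1*, *Slc39a14* and *Vegfa* (0.941 to 0.928), for *Fgf10* *Dpyd*, *Ankrd55* and *Galnt17* (0.961 to 0.945), for *Fgf11* *Lnx1*, *Dnajb3* and *Abcc10* (0.944 to 0.916), and for *Fgf18* *Prkca*, *Ly6k* and *Lhx8* (0.980 to 0.969). For *Fgfr1* they were *St3gal1*, *Klf4* and *Cebpd* (0.905 to 0.901), and for *Fgfrl1* *Ada*, *Traf3* and *Adgrl1* (0.905 to 0.900). *Fgfr2* was nearest to *Cdcp1*, *Ap1m2* and *Pm20d1* (0.936 to 0.923), *Fgfr3* to *Vsig10l*, *Klf5* and *Ackr4* (0.914 to 0.896), and *Fgfr4* to *Slc38a5*, *Sp7* and *A430078G23Rik* (0.911 to 0.893). *Ap1m2* and *Klf5* are known as genes of epithelium. All points share the 15 libraries and their depth and background.

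**Figure D5:**
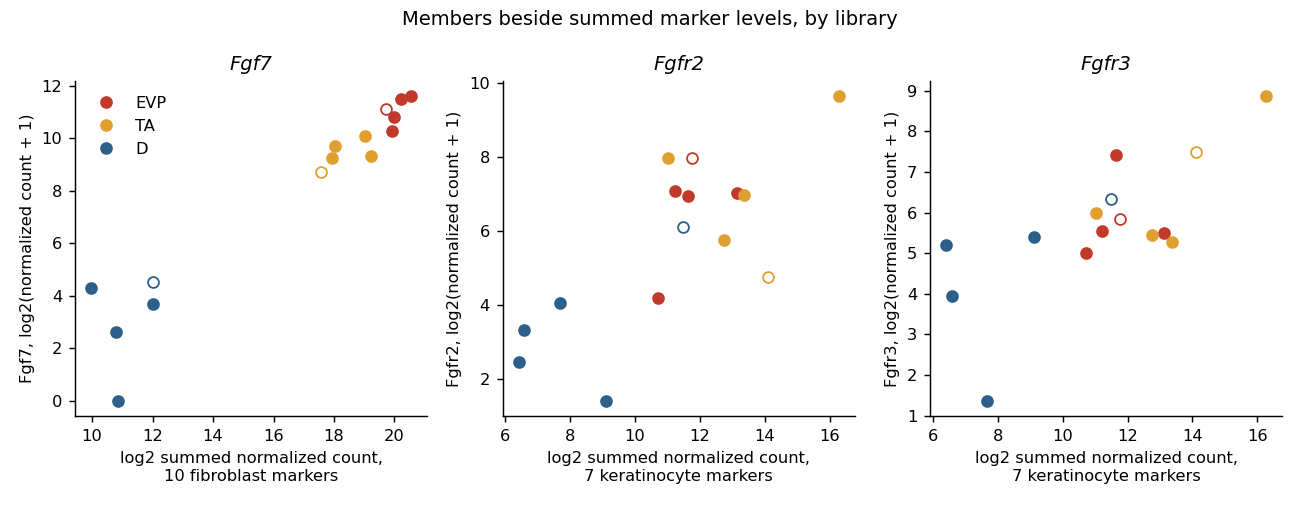
Each point is 1 library, with the log2 of a summed marker level on the horizontal axis and log2(normalized count + 1) of *Fgf7*, *Fgfr2* or *Fgfr3* on the vertical axis. Open points are replicate 1. *Fgf7* and the fibroblast markers are both low in the 5 D libraries and high in the 5 EVP libraries, and TA replicate 2 is at the upper right for *Fgfr2* and *Fgfr3*.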

How the data were processed

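RNA of GFP+ sorted cells was amplified by Smart-Seq2, which primes on poly(A) and does not mark strand, and sequenced as 15 libraries. The authors aligned reads with STAR (2.5.3a), counted them per gene with HTSeq, whose strand setting is not given in the sources used here, and deposited the signal of each gene as a count divided by the size factor of DESeq2 (1.10.1). Tables of the authors' own fold changes and p-values were not used. Populations followed the labels. Here, limma (3.58.1, R 4.3.3) was fitted to log2(normalized count + 1) of 25549 genes with a mean of at least 5, over all 15 libraries without covariates, with Benjamini-Hochberg adjustment and a threshold of 0.05. Of 53465 genes, 6716 were never above 0. The deposited values were whole multiples of 1 read in 100% of cases, within 0.01 of a whole number, and edgeR (4.0.16) and DESeq2 (1.42.0) on these reads called 3849 and 5732 genes between EVP and D, 663 and 1964 between EVP and TA and 2570 and 4422 between TA and D. The scripts were tested on simulated data. Reads carry no molecular identifiers, so limits cover counting error only, and 3 reads were worth 1.81 to 10.5 normalized counts.

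Lengths came from a GRCm38 annotation that held 99.8% of the genes, 96.3% of these at the same coordinates, and promoters from RefSeq (GRCm38.p6). The members and lists were chosen with earlier results of these data known. The text names the 10 members, at most 4 called genes of a list in each direction by the largest log2 difference, genes of a list that turn against the others, the 3 genes nearest in pattern, FGF genes the study named and markers beside a result. The fit without replicate 1 of every population and TA replicate 2 was chosen after seeing the data. The other alternatives were 2 pseudocounts, 2 filters, 2 scalings, library weights, a fit of only the populations compared, a replicate block and the omission of single libraries.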

Additional observations from a re-analysis of the deposited data

Results flagged for a closer look

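In 10 of the 30 sets of 5 libraries (10 genes in 3 populations) a single library lay far from the other 4 by Dixon's criterion. Chance alone meets it in about 1 in 20 sets of normally distributed values. Here it was applied to normalized counts without logs, where skew and values of 0 can meet it more often. The number flagged can therefore not be set against that rate. Among ligands, *Fgf2* in EVP replicate 5 was at 163.9 normalized counts beside 551.2 to 640.6 in the other EVP libraries. *Fgf10* in D replicate 1 was at 85.1 beside 0 to 7.35, and *Fgf18* in the same library was at 1.37, a single read, beside 0. *Fgf11* was at 171.9 in TA replicate 3 beside 0 to 29.3, and at 12.0 in D replicate 4 beside 0 to 1.37.

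Among receptors, *Fgfr2* was at 801.7 in TA replicate 2 beside 25.9 to 250.7, and at 68.6 in D replicate 1 beside 1.63 to 15.6. *Fgfr3* was at 168.6 in EVP replicate 4 beside 31.1 to 56.2, and *Fgfr4* in the same library was at 67.1 beside 0.818 to 14.04. *Fgfr4* was at 77.6 in TA replicate 1 beside 0 to 21.9. D replicate 1 and TA replicate 1 were libraries with reads on 89.2% and 81.6% of olfactory receptor genes, and TA replicate 2 had the highest keratinocyte sum of all libraries.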

How the results depend on the processing

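Of the 10 genes, 7 were called between EVP and D with all libraries, 4 in edgeR, 5 after quantile normalization and 6 to 8 with 1 library left out. Between EVP and TA 1 was called, against 3 with a pseudocount of 8, 2 with only both populations fitted, 2 in DESeq2, 0 without replicate 1 of every population, 0 without TA replicate 2 as well and 1 to 2 with 1 library left out. Between TA and D 4 were called, against 1 after quantile normalization, 6 without replicate 1 of every population and 2 to 5 with 1 library left out, the lowest without D replicate 4. Of the pathway genes, 41, 4 and 29 were called in EVP against D, EVP against TA and TA against D, with ranges of 31 to 42, 2 to 8 and 24 to 30 with 1 library left out. The 4 became 8 with a pseudocount of 8, 7 with a minimum mean of 20, 7 after quantile normalization, 15 in DESeq2, and 0 without replicate 1 of every population, with or without TA replicate 2. Over all tested genes the calls between EVP and TA were 893 with all libraries, 104 without replicate 1 of every population and 39 without TA replicate 2 as well. The cause was not tested.

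With the replicate number as a block, 7, 1 and 4 members and 43, 9 and 35 pathway genes were called, and over all genes 5710, 1262 and 4047 against 4859, 893 and 3199. The deviations of same-numbered libraries correlated above 0.1 in 4, 4 and 3 of 5 pairs, from -0.14 to 0.69. In each comparison 4 of 5 libraries correlated best with their own number, so that same-numbered libraries tended to vary together. The labels do not say what the numbers stand for, and the main fit, which has no covariates, leaves this out.

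The sign of differences that were not called with all libraries turned for *Fgfr3* (EVP against D -0.16 after quantile normalization, EVP against TA 0.29 without replicate 1 of every population and TA replicate 2), *Fgfr4* (EVP against TA 0.12 with a pseudocount of 0.5, 0.62 with library weights, 0.49 without replicate 1 of every population) and *Fgfrl1* (TA against D -0.088 after quantile normalization). With 1 library left out, *Fgfr2* and *Fgfr4* ranged from -0.95 to 0.28 and -0.89 to 0.74 in EVP against TA, and *Fgfr1* and *Fgfrl1* from -0.026 to 0.34 and -0.024 to 1.72 in TA against D, the latter reaching 1.82 without replicate 1 of every population and TA replicate 2. *Fgfr3* ranged from -1.14 to -0.19 in EVP against TA. The share of called genes higher in EVP went from 60.8% to 49.2% against D after quantile normalization, and from 44.6% to 24.9% against TA with libraries scaled to the same total. *Fgf18* in D and *Fgfr4* in most libraries lay at or near the limit of 3 reads.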
